A study of Zea mays with 18 samples.

Results

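Class III peroxidases are secreted heme enzymes of plants that use hydrogen peroxide to oxidize phenolic compounds. In the root cell wall they are known to join monolignols into lignin and to cross-link wall proteins and phenolics, which stiffens the wall, and they can also make reactive oxygen species that loosen it. Grasses hold large families of these enzymes, and for most members the substrate in the plant is not known. The transcripts described here are 7 of the 39372 transcripts with a probe on the array. They are the peroxidases on the study's list of transcripts that changed in T250 roots between 0 d and 4 d of growth without N, and all of them were on the falling side. GRMZM2G138450 is also on the list for Lo5. All are annotated as members of the peroxidase superfamily, each was measured by 1 probe for its transcript T01, and no role in the plant is assigned to any of them by the sources used here.

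Roots of seedlings of the maize inbred lines Lo5 and T250, which the study contrasts as lines of high and low nitrogen use efficiency, were collected after 0, 1 and 4 d in a nutrient solution without N. Before that, every group had been germinated in the dark and kept in a calcium sulfate solution that held no N either, so the 0 d roots are not roots fed with N. Each sample pooled the roots of 3 seedlings, and each of the 6 groups had 3 samples from repeats of the growth experiment, each on its own one-colour array. No array of plants kept on N was analysed here, so the lack of N and growth over the same days cannot be told apart. In whole roots, fewer cells of a type and less RNA per cell cannot be told apart either.

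Levels are log2 values of the processed signal above or below the 75th percentile of each array, so that 0 is the signal at that percentile, and they compare arrays for 1 probe but not one probe with another. A spot was well above background on 28868 to 32446 of the 39372 probes of an array, no spot was saturated, and between 4.12% and 12.3% of the spots of an array were marked as non-uniform or outlying and left out of the fits. The lowest level that was well above background lay between −7.07 and −5.78 on the arrays. In an index built on 2366 transcripts that differed by a log2 ratio of at least 3 between the lines at 0 d, where Lo5 is near 1 and T250 near 0, the other 8 Lo5 arrays ranged from 0.933 to 1.03 and the 9 T250 arrays from −0.0282 to 0.143. For the array labelled as Lo5 1 d replicate 3 it was 0.0951, within the range of T250, and results that rest on this array are given with and without it where it moved them. Of 7 root markers, the root hair gene rth3 and the iron uptake transporter gene ys1 were well above background on each of the 18 arrays. Of 10 leaf markers 3 were, Ppdk1, lhcb3 and lhcb6, whereas the Rubisco small subunit gene rbcs1 was on 1 array and lhcb5 on none. The log2 of the summed leaf markers ranged from 0.66 to 1.61 in Lo5 at 4 d, below the arrays of every other group except Lo5 at 0 d (−0.55 to 3.71), and from 2.17 to 4.46 in the remaining groups. At 4 d this leaf sum lay close to the level of Ppdk1 alone, 0.41 to 1.46 in Lo5 and 2.75 to 4.19 in T250. There lhcb6 ranged from −3.90 to −2.40 in Lo5 and from −1.05 to −0.73 in T250. The leaf sum at 4 d is therefore mostly that of 1 gene. The log2 of the 7 summed root markers ranged from 3.34 to 4.04 in T250 at 4 d, against 3.55 to 4.65 there at 0 d. In Lo5 at 0 d and 4 d it ranged from 4.89 to 5.55. The part of either in the results was not tested.

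GRMZM2G138450_T01 was the member with the widest range, and after 4 d its spots were at background on all arrays of both lines. In Lo5 its level was 1.06 (a marked spot), 1.19 and −0.49 at 0 d, −3.91, −1.26 and −4.98 at 1 d, and −9.24, −8.51 and −9.03 at 4 d. In T250 its level was 1.00, −2.69 and −1.42 at 0 d, −0.66, −3.68 and −4.75 at 1 d, and −8.38, −8.85 and −9.17 at 4 d. The 4 d arrays lay below every 0 d and 1 d array of the same line. In Lo5 the 1 d arrays also lay below the 0 d arrays, whereas in T250 the 0 d and 1 d arrays overlapped. Since the 4 d levels are bounds, the 0 d level was at least 146-fold higher than that at 4 d in Lo5 and at least 46.7-fold higher in T250. The 1 d level was at least 11.0-fold higher than that at 4 d in Lo5 (at least 19.0-fold without the array labelled as Lo5 1 d replicate 3) and at least 11.7-fold higher in T250. Each bound is the mean of the higher group over the mean of the 4 d arrays raised to the lowest signal well above background of each array. The bounds hold for the processed signal, in which the scanner software had removed the background. With a normexp correction of the median signals the log2 ratio of 4 d to 0 d was −4.40 in Lo5 and −1.44 in T250, and that of 4 d to 1 d was −2.37 and −0.59, all smaller falls than these bounds. That correction adds an offset of 50 to every signal, which narrows the ratios of dim spots. The lowest processed signals well above background were 4.11 to 10.7 on the arrays. The fitted log2 ratio of 4 d to 0 d in T250, with the background levels taken as they are, was −7.76 on all arrays, −6.74 without T250 0 d replicate 1 and −8.59 without T250 0 d replicate 2. These arrays chose the transcript, so no test is given for its change over time. The difference between the lines at 1 d uses none of the arrays of that choice, and its log2 ratio of Lo5 to T250 was −0.35 ± 1.14 (SE, limma adjusted p = 0.91), and 0.44 ± 1.21 without the array labelled as Lo5 1 d replicate 3 (limma adjusted p = 0.86).

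**Figure D1:**
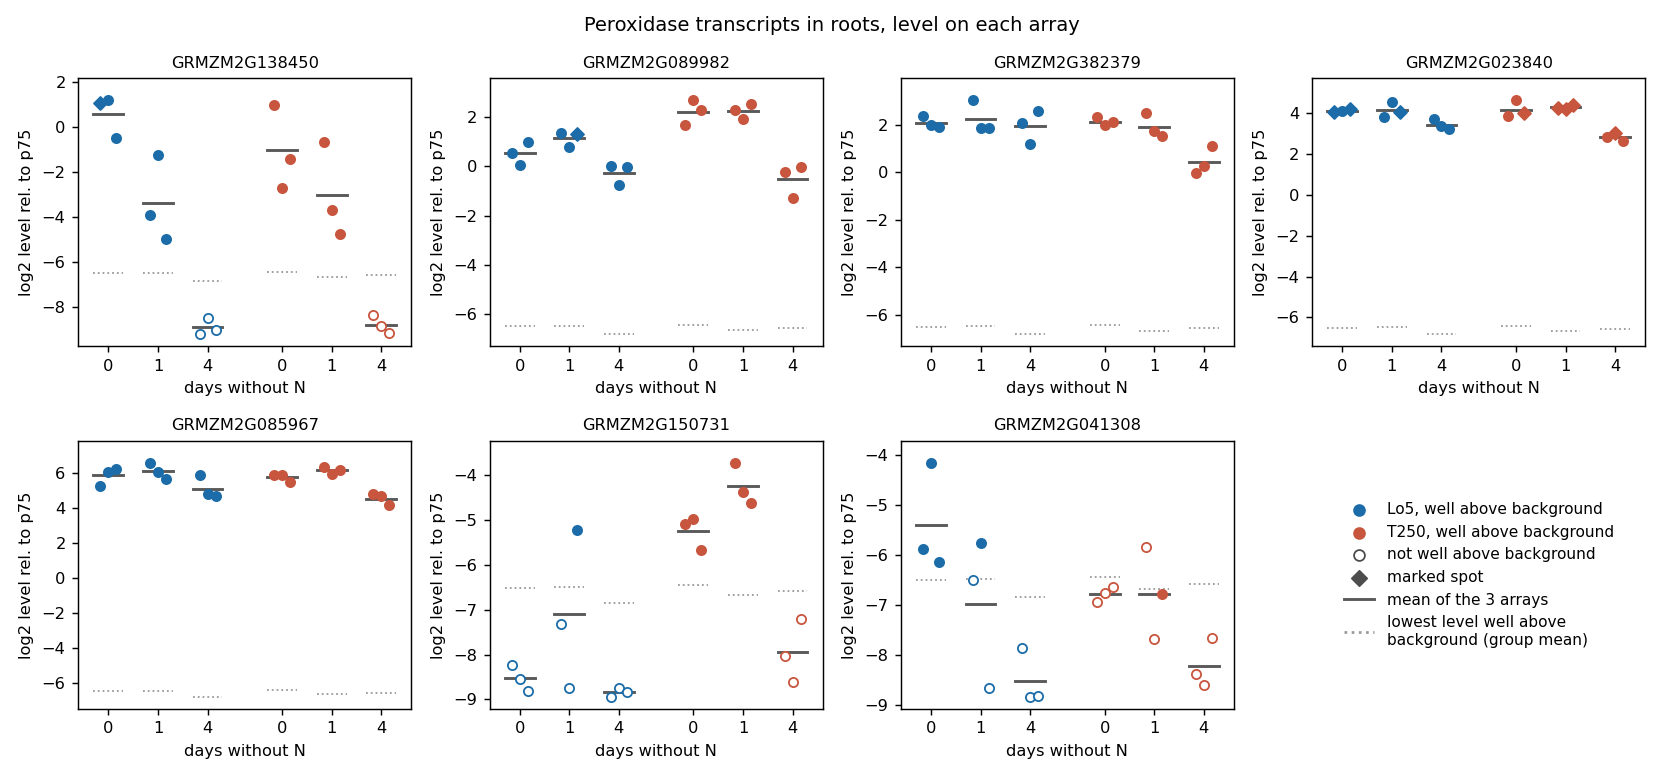
Level of each of the 7 peroxidase transcripts on every array (y axis, log2 with the 75th percentile of each array at 0) by days without N for Lo5 (blue) and T250 (red), with 3 arrays per group. Filled points were well above background, open points were not, diamonds are marked spots, the bars are the means of the 3 arrays and the dotted lines the mean of the lowest levels well above background. In every panel the 4 d arrays of T250 lie below all 0 d arrays of that line, which with normexp turns in the mean of GRMZM2G150731 and of GRMZM2G041308, and GRMZM2G138450 is not well above background on any 4 d array.

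GRMZM2G089982_T01 was well above background on all 18 arrays and stood higher in T250 than in Lo5 until 1 d, after which the lines met. Its level in T250 was 1.70, 2.69 and 2.32 at 0 d, 2.31, 1.94 and 2.55 at 1 d, and −0.24, −1.30 and −0.02 at 4 d. In Lo5 it was 0.56, 0.08 and 0.99 at 0 d, 1.37, 0.79 and 1.31 (a marked spot) at 1 d, and 0.02, −0.76 and −0.03 at 4 d. In T250 the 0 d and 1 d arrays overlapped and the 4 d arrays lay below all of them, a difference of 6.76-fold from 0 d. In Lo5 the 4 d arrays also lay below every array of 0 d and of 1 d. The log2 ratio of 4 d to 0 d in Lo5 was −0.80 ± 0.39 (SE, limma adjusted p = 0.67), and within the pair of slides that hold both groups it was −0.06 and −1.75. From 1 d to 4 d in Lo5 it was −1.34 ± 0.44, with a limma p of 0.0087 that became 0.23 after adjustment. By limma that ratio was past the threshold of the study's methods, at which a log2 ratio of 1 or more in size has a p of 0.01 or less before adjustment. With the t-test of those methods it was not past it. The array labelled as Lo5 1 d replicate 3 has a marked spot for this probe and entered neither the mean nor the test. At 1 d the log2 ratio of Lo5 to T250 was −1.19 ± 0.44 (limma adjusted p = 0.14), with no overlap between the lines.

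GRMZM2G382379_T01 was well above background on all 18 arrays and set T250 at 4 d apart from the other 5 groups. In T250 its level was 2.30, 1.96 and 2.09 at 0 d, 2.50, 1.71 and 1.51 at 1 d, and −0.04, 0.256 and 1.096 at 4 d. In Lo5 it was 2.35, 1.97 and 1.89 at 0 d, 3.02, 1.86 and 1.88 at 1 d, and 2.06, 1.17 and 2.57 at 4 d. The 4 d arrays of T250 lay below all other arrays, 3.21-fold below the 0 d arrays of that line on average, while the 3 groups of Lo5 overlapped. The log2 ratio of 4 d to 0 d in Lo5 was −0.14 ± 0.42 (SE, limma adjusted p = 1.00), with 0.09 and −0.72 within slides, and leaving out 1 array in turn moved it between −0.46 and 0.24. Between the lines its level at 4 d was 1.49 ± 0.42 higher in Lo5, a log2 difference that shares the T250 arrays of the choice and is given without a test.

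GRMZM2G023840_T01 was well above background on every array, but 8 of its 18 spots were marked, among them all 3 of T250 at 1 d. Its level in T250 was 3.85, 4.64 and 4.01 (marked) at 0 d, 4.27, 4.23 and 4.43 (all marked) at 1 d, and 2.85, 3.06 (marked) and 2.66 at 4 d. In Lo5 it was 4.05 (marked), 4.13 and 4.23 (marked) at 0 d, 3.82, 4.54 and 4.08 (marked) at 1 d, and 3.74, 3.38 and 3.25 at 4 d. In both lines the 4 d arrays lay below all arrays of 0 d and 1 d, and those of T250 lay below those of Lo5. With the marked spots kept, the log2 ratio of 4 d to 0 d was −1.31 ± 0.25 (SE) in T250, given without a test, and −0.68 ± 0.25 in Lo5. Without them the ratio in Lo5 was −0.67 ± 0.46 from a single 0 d spot (limma adjusted p = 0.82), and with the replicate number as a block −0.37. Within slides, marked spots included, it was −0.39 and −0.86.

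GRMZM2G085967_T01 was also well above background on all 18 arrays. In T250 its level was 5.92, 5.92 and 5.49 at 0 d, 6.36, 5.99 and 6.20 at 1 d, and 4.79, 4.68 and 4.18 at 4 d. In Lo5 it was 5.30, 6.07 and 6.27 at 0 d, 6.58, 6.10 and 5.68 at 1 d, and 5.88, 4.80 and 4.68 at 4 d. In T250 the 1 d arrays stood above the 0 d arrays and the 4 d arrays lay below both, by 2.34-fold from 0 d on average. In Lo5 replicates 2 and 3 of 4 d lay below all earlier arrays, while replicate 1 did not. The log2 ratio of 4 d to 0 d in Lo5 was −0.76 ± 0.35 (SE, limma adjusted p = 0.66), with −0.19 and −1.47 within slides. From 1 d to 4 d it was −0.999 ± 0.352 (limma adjusted p = 0.26) and −1.22 ± 0.38 without the array labelled as Lo5 1 d replicate 3 (limma adjusted p = 0.32).

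GRMZM2G150731_T01 was measured in T250 at 0 d and 1 d, and in Lo5 it was well above background on no array except the one labelled as Lo5 1 d replicate 3. In T250 its level was −5.08, −4.97 and −5.67 at 0 d, −3.73, −4.36 and −4.61 at 1 d, and −8.04, −8.61 and −7.20 at 4 d, where no array was well above background. In Lo5 it was −8.23, −8.54 and −8.82 at 0 d, −7.31, −8.75 and −5.22 at 1 d, and −8.95, −8.75 and −8.84 at 4 d. In T250 the 1 d arrays lay above the 0 d arrays. The level at 0 d was at least 2.53-fold higher than that at 4 d, and the level at 1 d at least 5.09-fold higher. The direction in T250 turned with the normexp correction, which gave a log2 ratio of 1.02 from 0 d to 4 d. At 0 d the level in T250 was at least 2.40-fold that in Lo5, again a description. The arrays of 1 d were not used in the choice. But the probe entered the fit only through T250, so a lower level in Lo5 is partly given by that filter. The p-values that follow are therefore a description, and nothing is read from them. In Lo5 at 1 d the probe is at background on every array other than the one labelled as Lo5 1 d replicate 3. Without that array the level in T250 at 1 d was at least 4.66-fold higher than in Lo5. The fitted log2 ratio of Lo5 to T250 of −2.86 ± 0.64 (SE, limma adjusted p = 0.023) takes the background levels as they are. With the normexp correction it was −0.07 (limma adjusted p = 1.00), and the methods' t-test gave an adjusted p of 0.57, so that the call depends on the treatment of the background and on the test. Leaving out any one of the other 5 arrays of these groups brought the limma adjusted p to between 0.053 and 0.084, whereas without the array labelled as Lo5 1 d replicate 3 it was 4.2e-05. For 4 d against 0 d in Lo5 no ratio is given, since both groups were at background.

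GRMZM2G041308_T01 showed the reverse, being measured in Lo5 at 0 d and hardly in T250. In Lo5 its level was −5.88, −4.16 and −6.14 at 0 d, all well above background, and −7.87, −8.85 and −8.83 at 4 d, none of them well above background. At 1 d it was −6.50, −5.76 and −8.66 in Lo5, of which replicate 2 was well above background. In T250 it was −6.95, −6.75 and −6.65 at 0 d, −5.85, −7.69 and −6.78 at 1 d, and −8.38, −8.62 and −7.67 at 4 d, and replicate 3 of 1 d alone was well above background. The T250 contrast that put it on the list therefore compares groups that were both not well above background, and no fold is given for it. In Lo5 the 0 d level was at least 2.73-fold higher than that at 4 d, and at least 2.01-fold higher than that of T250 at 0 d. The probe entered the fit only through Lo5 at 0 d, the group in which it is highest, so a lower level elsewhere is partly given by that filter. The p-values that follow are therefore a description, and nothing is read from them. The fitted log2 ratio of 4 d to 0 d in Lo5 was −3.13 ± 0.69 (SE, limma adjusted p = 0.17) with the background levels taken as they are, −1.45 with the 4 d levels raised to the lowest signal well above background (limma adjusted p = 0.41), and −0.80 with the normexp correction (limma adjusted p = 0.99). It was −3.72 and −2.71 within slides. Without the array labelled as Lo5 1 d replicate 3, which enters only through the shared spread, the limma adjusted p was 0.042. For 1 d against 0 d in Lo5 the log2 ratio was −1.58 ± 0.69 (limma adjusted p = 0.95) and −0.74 ± 0.60 without that array (limma adjusted p = 1.00), and the normexp correction turned it to 0.51.

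In T250 most members stood near or above their 0 d level at 1 d and below it at 4 d. The list was chosen on 4 d against 0 d, so all members were lower by a log2 ratio of at least 1 there (with normexp GRMZM2G150731 and GRMZM2G041308 were not), as were 8.7% of all 30418 probes compared, and nothing is read from that count. From 0 d to 1 d in T250 the log2 ratios were 0.03 ± 0.39 (SE) for GRMZM2G089982, −0.21 ± 0.42 for GRMZM2G382379, 0.41 ± 0.35 for GRMZM2G085967 and 1.01 ± 0.64 for GRMZM2G150731. GRMZM2G023840, with marked spots kept, gave 0.14 ± 0.25. Of the members measured in that line, GRMZM2G138450 alone was lower by a log2 ratio of at least 1 at 1 d (−1.99 ± 1.14), compared with 6.35% of all probes. From 1 d to 4 d in T250 GRMZM2G138450 and GRMZM2G150731 went to background, at least 11.7-fold and 5.09-fold below 1 d. The log2 ratio was −2.79 ± 0.39 for GRMZM2G089982, −1.63 ± 0.35 for GRMZM2G085967, −1.47 ± 0.42 for GRMZM2G382379 and, with marked spots kept, −1.46 ± 0.25 for GRMZM2G023840. In this step 11.1% of all 30601 probes were lower by a log2 ratio of at least 1. Both steps share T250 arrays with the choice of the members and are given without a test. On the only slide that holds T250 at 0 d, 1 d and 4 d, the log2 differences of 4 d to 1 d for these last 4 members ran from −2.80 for GRMZM2G089982 to −1.41 for GRMZM2G085967.

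**Figure D2:**
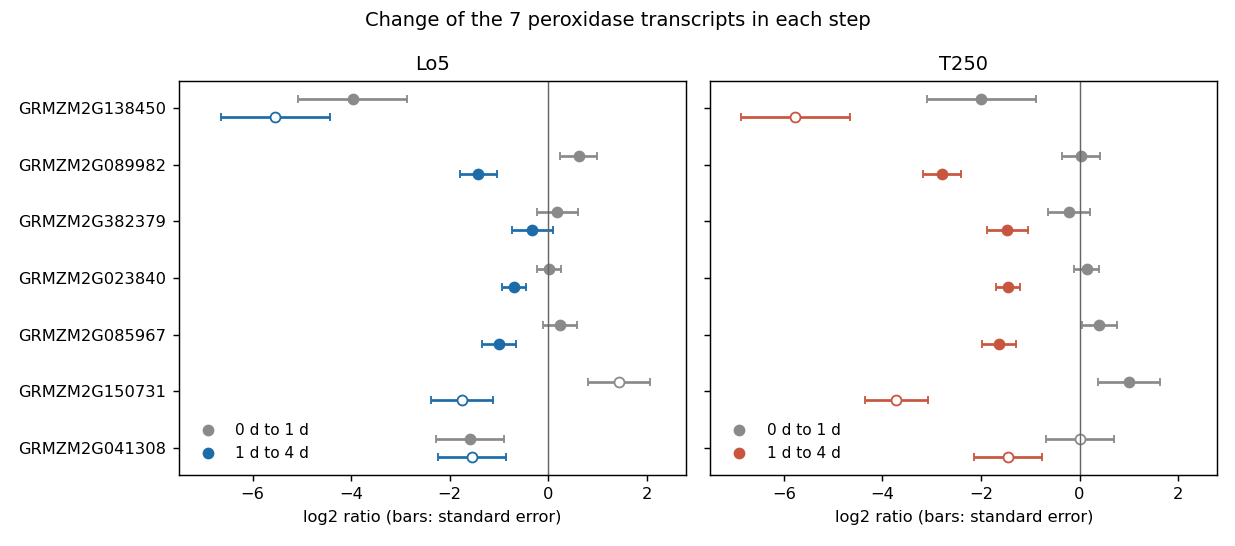
Log2 ratio of each of the 7 peroxidase transcripts (x axis, with its standard error as a bar) from 0 d to 1 d (grey) and from 1 d to 4 d (blue in Lo5, red in T250), with marked spots kept. Open points have a group with no array well above background, so that their size is set by the background. Of the 4 transcripts with filled points in both steps and lines, all 4 lie at −1.46 or below in the second step in T250 and at −0.32 or below in Lo5, each nearer to 0 in Lo5. The 4 d arrays of T250 were used to choose the transcripts, which favours a larger fall in T250, so nothing is read from this contrast.

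Lo5 arrays were not used to choose the members other than GRMZM2G138450, so for 6 of them the choice did not fix the change in Lo5. Of these, GRMZM2G150731 and GRMZM2G041308 entered the fit only through a group in which they were high, and they are left out of the counts that follow, which cover the 4 members well above background on all 18 arrays. All 4 had a log2 ratio of 4 d to 0 d in Lo5 below 0 (58.6% of all 30641 probes did), with a median of −0.72 against −0.10 over all probes. For 2 of the 4, GRMZM2G089982 and GRMZM2G023840, the 4 d arrays lay below all 0 d arrays, as was the case for 15.7% of all probes. None of the 4 was past the threshold of the methods (0.891% of all probes were past it on the lower side), by limma or by the methods' t-test with marked spots kept, or called by limma after adjustment (0.0131%). The outcome of that t-test was known beforehand, since none of these 4 is on the study's list for Lo5. GRMZM2G085967 had an unadjusted limma p below 0.05, as had 7.57% of all probes. From 0 d to 1 d in Lo5, 0 of the 4 were lower, 0 were past the threshold of the methods (0.394% of all probes were past it on the lower side), and 0 had an unadjusted limma p below 0.05 (4.1% of all probes had), with and without the array labelled as Lo5 1 d replicate 3. Without that array 49.4% of all probes were lower in this step. The methods' t-test on all arrays also found 0 of the 4 past the threshold in this step. From 1 d to 4 d in Lo5 all 4 had a log2 ratio below 0 (54.4% of all 30852 probes did), with a median of −0.86 against −0.08 over all probes, and of −0.97 against −0.10 without that array. The 4 d arrays of GRMZM2G089982 and GRMZM2G023840 lay below all 1 d arrays, compared with 13.7% of all probes. GRMZM2G089982 was past the threshold of the methods (1.59% of all probes on the lower side), and without that array GRMZM2G085967 was past it as well. Limma called 0 of the 4 after adjustment in either case (0.013% of all probes were called and lower), and with the methods' t-test on all arrays 0 of the 4 were past the threshold. Before adjustment 2 of the 4 had a limma p below 0.05, compared with 13.6% of all probes. In this step GRMZM2G023840 had a log2 ratio of −0.73 ± 0.36 (SE) and GRMZM2G382379 one of −0.32 ± 0.42, which was −0.51 ± 0.47 without that array.

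Between the lines at 1 d, 6 of the 7 members could be compared, since GRMZM2G023840 had no unmarked spot in T250. GRMZM2G150731 alone met the criteria for a call after adjustment, as did 4.24% of all 30522 probes in either direction. The same transcript was the only one past the threshold of the methods (8.82% of all probes). These shares are 1293 and 2692 probes on all arrays. Without the array labelled as Lo5 1 d replicate 3 the counts were 5062 and 5180. GRMZM2G150731 is at background in Lo5 and entered the fit only through T250, so the filter favours this direction and nothing is read from the call. The log2 ratio of Lo5 to T250 was 0.35 ± 0.42 (SE) for GRMZM2G382379, −0.06 ± 0.35 for GRMZM2G085967 and −0.20 ± 0.69 for GRMZM2G041308, and the arrays of the lines overlapped for all 3. Without the array labelled as Lo5 1 d replicate 3 these became 0.54, 0.16 and 0.64, the last pair with the opposite sign. At 0 d, where the comparison shares arrays with the choice, the log2 ratio of Lo5 to T250 was −1.69 ± 0.39 (SE) for GRMZM2G089982, while for GRMZM2G382379, GRMZM2G023840 and GRMZM2G085967 it lay between −0.12 and 0.10. From 0 d to 4 d the log2 ratio was lower in T250 than in Lo5 by 1.96 ± 0.55 for GRMZM2G089982, by 1.54 ± 0.59 for GRMZM2G382379, by 0.82 ± 0.61 for GRMZM2G023840 and by 0.47 ± 0.50 for GRMZM2G085967, again without a test.

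The choice had a threshold, and members lay close to it. With the methods' t-test on all spots, the members nearest to it by p in T250 at 4 d against 0 d were GRMZM2G382379, GRMZM2G041308 and GRMZM2G023840, with log2 ratios of −1.68, −1.44 and −1.31, and the member nearest to it by size was GRMZM2G085967 with −1.23. Just outside it lay PRX66 (GRMZM2G133475) with a log2 ratio of −2.76, whose t-test p missed the threshold, followed by GRMZM2G404676 with −1.26, PRX2 (GRMZM2G040638) with −1.83 and GRMZM2G448051 with −1.38. The peroxidases outside the list include log2 ratios as large as those within it.

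For 10 other class III peroxidases a probe could be named, 5 from the other lists of the study and 5 from RefSeq, which names them as plasma membrane peroxidases of the pmPOX group, a set of membrane-bound class III peroxidases of maize roots. PRX66 (pmPOX3-2) changed most. In T250 its level was 0.10, 0.06 and −1.60 at 0 d, 0.29, 2.35 and 2.46 at 1 d, and −2.88, −4.01 and −2.83 at 4 d, so that the 1 d arrays stood above and the 4 d arrays below all 0 d arrays. Its log2 ratio from 1 d to 4 d in T250 was −4.94 ± 0.65 (SE, limma adjusted p = 0.0081), in a step in which 0.935% of all probes were called and lower. From 0 d to 4 d in T250 it was −2.76 ± 0.65, past the threshold of the methods (2.27% of all probes on the lower side) with a limma adjusted p of 0.083, and from 0 d to 1 d it was 2.18 ± 0.65 (limma adjusted p = 0.61). In Lo5 its level was 1.17, 1.23 and 0.87 at 0 d, 0.48, 0.60 and −0.80 at 1 d, and 0.51, −0.66 and −1.26 at 4 d. The Lo5 arrays of 4 d lay below those of 0 d, with a log2 ratio of −1.56 ± 0.65 (limma adjusted p = 0.59). PRX70 (pmPOX2b) stayed between 2.09 and 3.76 on all 18 arrays, and PRX42 (pmPOX3-1) had log2 ratios of 4 d to 0 d of −1.11 ± 0.62 in Lo5 (limma adjusted p = 0.72) and −0.09 ± 0.62 in T250 (limma adjusted p = 0.97). PRX1 (pmPOX1) had no unmarked spot at 0 d in either line.

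PRX2 (pmPOX2) and a pair of peroxidases of the study's Lo5 list had log2 ratios of 4 d to 0 d above 0 in Lo5 and below 0 in T250. PRX2 was 5.25, 5.40 and 4.83 in Lo5 at 0 d and 6.33, 5.89 and 5.89 at 4 d. In T250 it was 4.63, 3.83 and 5.83 at 0 d, all marked spots, and 2.79, 1.58 and 4.43 at 4 d. At 4 d its level was higher in Lo5 by a log2 ratio of 3.10 ± 0.70 (SE, limma adjusted p = 0.011). In that comparison of the lines 6195 probes were called after adjustment. Among them were 2 of the 5 peroxidases named from RefSeq, PRX2 included, and 1 of the 5 from the study's other lists. GRMZM2G448051 was −4.74, −4.79 and −4.50 in Lo5 at 0 d and −3.45, −2.60 and −3.29 at 4 d. In T250 GRMZM2G448051 was −1.93, −2.43 and −2.94 at 0 d and −5.32, −3.40 and −2.72 at 4 d. GRMZM2G061776 stood between −1.16 and −0.61 at 0 d and between 0.59 and 0.75 at 4 d in Lo5, and its T250 arrays of 0 d and 4 d overlapped. The other two of the Lo5 list, GRMZM2G037156 and GRMZM2G404676, were lower at 4 d than at 0 d on every Lo5 array, with log2 ratios of −1.49 ± 1.00 and −1.21 ± 0.36, given without a test because that contrast chose them. GRMZM2G427937, from the study's list for T250 at 1 d, was well above background on the 3 arrays of T250 at 1 d and on no other array. Its level there, between −6.24 and −5.37, was at least 1.62-fold that at 0 d and at least 1.79-fold that at 4 d. On the chromosome, 6 genes of the RefSeq annotation lie between it and GRMZM2G150731.

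**Figure D3:**
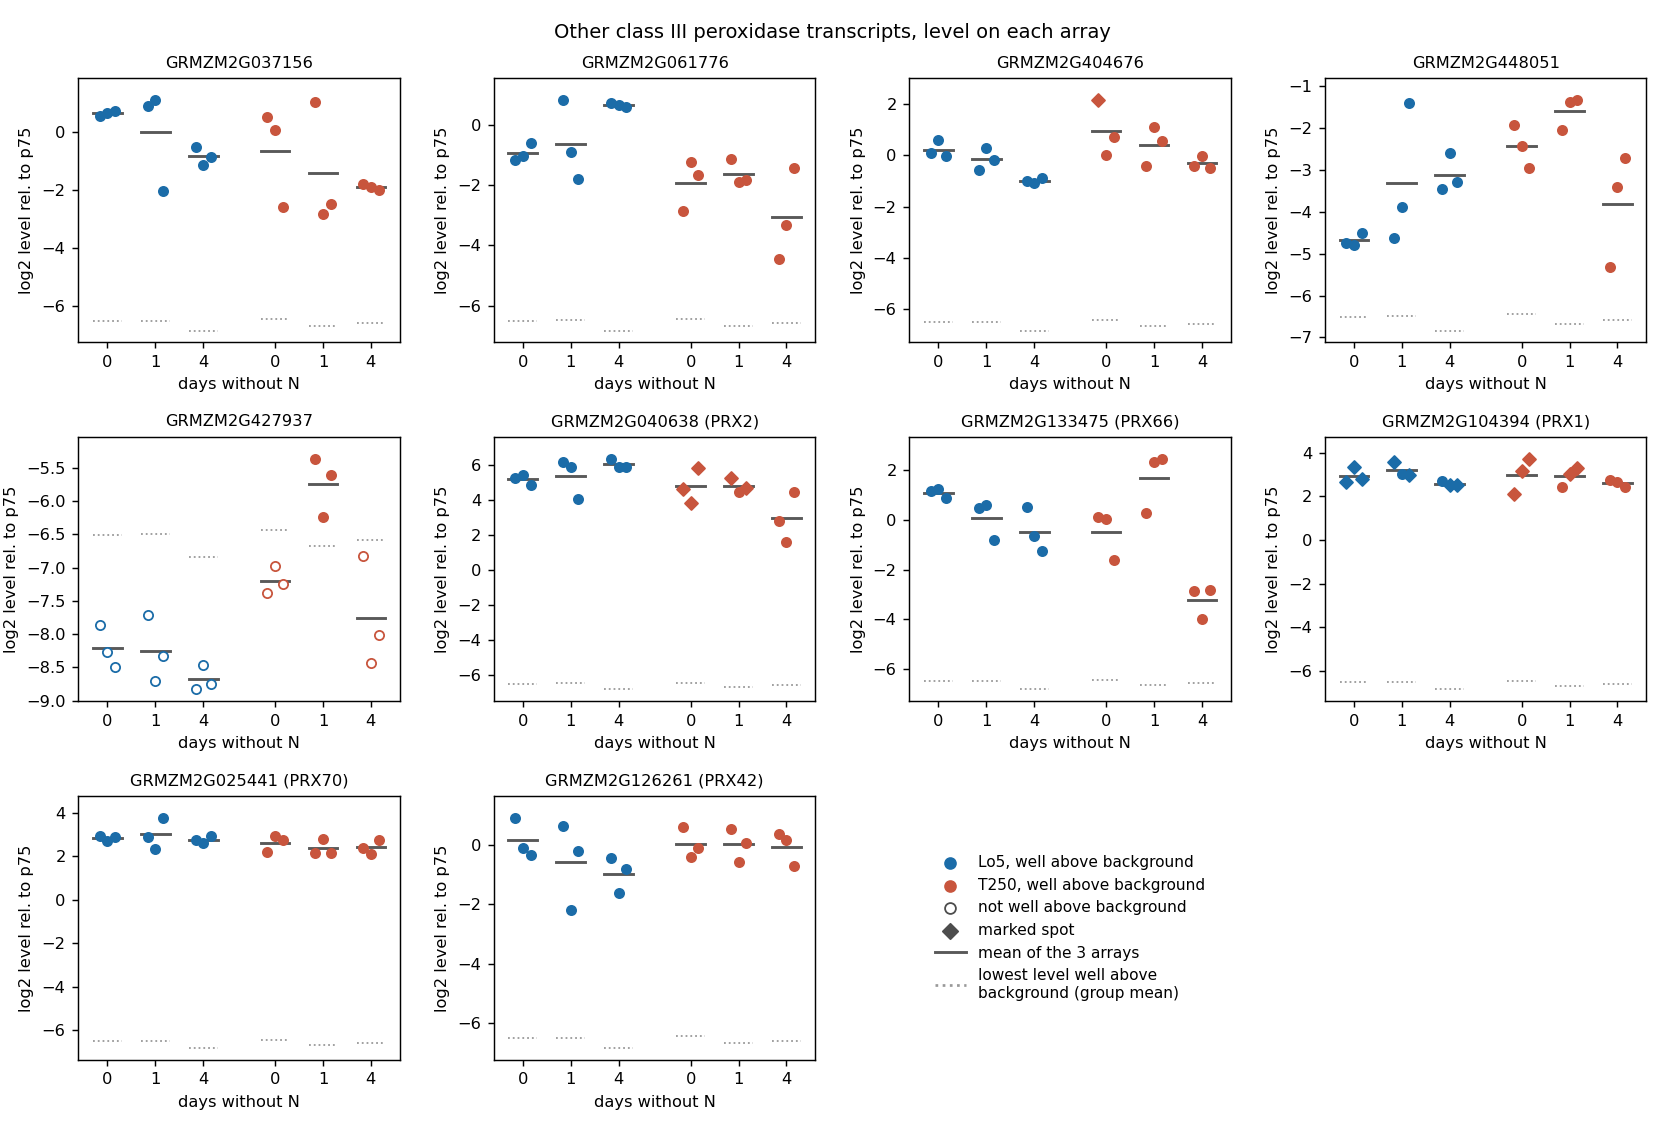
Level of 10 other class III peroxidase transcripts on every array (y axis, log2 with the 75th percentile of each array at 0) by days without N for Lo5 (blue) and T250 (red), with 3 arrays per group and the same symbols as for the 7 falling transcripts. PRX66 lies above its 0 d arrays at 1 d and below them at 4 d in T250, and GRMZM2G427937 is well above background in T250 at 1 d alone.

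Genes that supply or remove hydrogen peroxide, the substrate these enzymes share, were counted beside them. Past the threshold of the methods at 4 d against 0 d in Lo5 were 0 of 2 catalases, 0 of 7 superoxide dismutases, 0 of 2 respiratory burst oxidases (NADPH oxidases that make superoxide) and not the ascorbate peroxidase apx2. None had a limma p below 0.05 before adjustment, and the methods' t-test with marked spots kept also found 0 of these genes past the threshold. In T250 1 of 6 superoxide dismutases was past the threshold, GRMZM2G124455 (SODA.3, a manganese enzyme of the mitochondrion), with a log2 ratio of −1.25 ± 0.33 (SE, limma adjusted p = 0.11), and 0 of the 2 catalases, 0 of the 2 respiratory burst oxidases and not apx2. Before adjustment 3 superoxide dismutases and 1 respiratory burst oxidase had a limma p below 0.05, and the methods' t-test found 0 of these genes past the threshold. An unadjusted limma p below 0.05 was found for 13.2% of all probes in T250. Of the laccases, copper oxidases that also polymerize monolignols, 0 of 12 were past it in Lo5 and 0 of 10 in T250, and their median log2 ratios at 4 d were 0.06 and −0.35. In Lo5 1 laccase had a limma p below 0.05 before adjustment and 1 was past the threshold with the methods' t-test, and in T250 both counts were 0. For comparison, 1.68% of all probes in Lo5 and 3.89% in T250 were past it. CASP genes organize the Casparian strip, but neither could be compared, since CASP1 (GRMZM2G110832) did not enter the fit and CASP2 was not found on the array by name. Of the CASP-like genes related to them, CASPL5A2 and CASPL2D1, 0 of 2 in Lo5 and 0 of 1 in T250 were past the threshold, none with a limma p below 0.05. Among the markers, the nitrate transporter genes nrt2.1 (GRMZM2G010280) and nrt2.2 (GRMZM2G010251) were past it by limma in T250 with log2 ratios of −4.61 ± 1.04 (SE, limma adjusted p = 0.074) and −6.46 ± 1.53 (limma adjusted p = 0.096). In Lo5 that of nrt2.1 was 0.42 ± 1.04. That of nrt2.2 was −3.13 ± 1.93 from a single unmarked 0 d spot (limma adjusted p = 0.77), with no overlap between 0 d and 4 d. The study reports a fall of nrt2.2 in Lo5 only, by its t-test, and real-time RT-PCR in Lo5 gave a fall too. The study also reports a significant decrease of nitrate uptake in that line alone. With marked spots kept, the mean level of nrt2.2 at 0 d and 4 d was 1.71 and −1.73 in Lo5. In T250 it was 1.01 and −5.91, and that of ys1 in T250 was 2.03 and 0.04. The methods' t-test with marked spots kept found 1 root marker past the threshold in each line, nrt2.2 in Lo5 and ys1 in T250. The light-harvesting gene lhcb6 (GRMZM2G092427) was past it in Lo5 with −1.86 ± 0.55 (SE, limma adjusted p = 0.36).

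**Figure D4:**
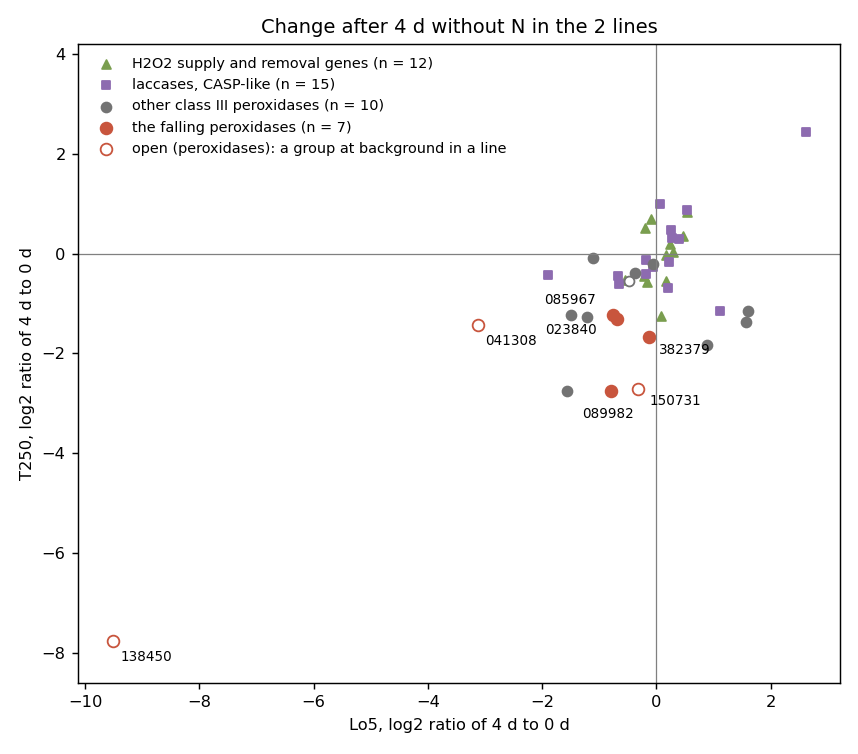
Log2 ratio of 4 d to 0 d in Lo5 (x axis) and T250 (y axis), with marked spots kept, for the 7 falling peroxidases (red), 10 other class III peroxidases (grey), genes of hydrogen peroxide supply and removal (green triangles) and laccases and CASP-like genes (violet squares). Open points are peroxidases with a group at background in a line. All red points lie below 0 on the y axis by the choice of the list (above 0 for GRMZM2G150731 and GRMZM2G041308 with normexp), and GRMZM2G138450 stands apart at the lower left.

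Over the 18 arrays, which fall into 6 groups and are not 18 independent conditions, the Pearson correlation between 2 members ranged from 0.08 to 0.84 with a median of 0.56 over 21 pairs, as a description. Among 21592 probes with no marked spot, the 5 most like GRMZM2G138450 were AC209208.3_FGT002 (r = 0.87), GRMZM2G056908 (0.85), GRMZM5G831200 (0.84), GRMZM2G348452 (0.84) and GRMZM2G479245 (0.84). GRMZM2G056908 is TIP2-2, a tonoplast aquaporin that carries water across the vacuolar membrane, and GRMZM2G348452 is CKX10, a cytokinin oxidase, an enzyme class that breaks down cytokinins. TIP2-2 also came first for the mean of the other 6 members (r = 0.91), before GRMZM2G114325 (0.91), GRMZM5G821787 (0.90), GRMZM2G136872 (0.89) and GRMZM2G421835 (0.89). The mean level of TIP2-2 was 7.54, 7.68 and 6.76 in Lo5 and 7.79, 7.64 and 6.27 in T250 at 0 d, 1 d and 4 d, so that it too was lowest at 4 d in both lines.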

How the data were processed

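The authors deposited, for each of the 18 arrays, the processed intensity of every spot as Agilent Feature Extraction 10.5.1.1 wrote it, with spot marks, and a series table of the same intensity multiplied by 1 factor per array, which sets a common 75th percentile. Here each array's 75th percentile, taken without control spots, was subtracted on the log2 scale from its processed signals, and marked spots were left out. Where all 3 arrays of some group were well above background, the probe entered 1 limma fit of the 6 groups (limma 3.58.1, R 4.3.3), with two-sided p-values and Benjamini-Hochberg adjustment over all probes of a comparison. The fits were tested on simulated data. Calls need an adjusted p of up to 0.05, and the threshold of the methods an unadjusted p of up to 0.01, each with a log2 ratio of at least 1. The members and lists were chosen with earlier results of these data known. Named transcripts were the members, the peroxidases of the study's lists and of RefSeq, those nearest the threshold, the 5 probes most correlated with GRMZM2G138450 and with the mean of the others, and the listed genes past the threshold at 4 d. RefSeq (Zm-B73-REFERENCE-NAM-5.0) gave names through old gene IDs for 18726 of 39372 transcripts, 5 of the 7 members among them. It holds no descriptions, so lists rest on symbols and synonyms, and protein and promoter features were not analysed here. The replicate number stands for the growth experiment, but of same-numbered arrays not every pair deviated together (r −0.32 to 0.46, median 0.05, over 45 pairs), so it served as an alternative. The number of arrays limits the precision.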

Additional observations from a re-analysis of the deposited data

Results flagged for a closer look

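Among the members and the other class III peroxidases, 4 changes went one way on every Lo5 array and the opposite way on every T250 array, measured from the mean of the earlier day with marked spots kept. None of these differences between the lines was tested, and all concern peroxidases outside the 7 members. The share of all probes that do the same was not counted, so nothing is read from this number. From 0 d to 4 d the T250 arrays of both days overlapped for GRMZM2G448051 and PRX2. GRMZM2G448051 is on the study's Lo5 list, so its direction in Lo5 was fixed by that choice. From 0 d to 4 d GRMZM2G448051 moved by 1.57 on average in Lo5 and by −1.38 in T250, a difference of 2.95 on the log2 scale. PRX2 (GRMZM2G040638) moved by 0.88 in Lo5 and by −1.83 in T250, a difference of 2.71. From 1 d to 4 d PRX2 moved by 0.67 in Lo5 and by −1.85 in T250, a difference of 2.52. Without the array labelled as Lo5 1 d replicate 3 the Lo5 change was 0.02, 1 of 3 Lo5 arrays moved up, and the opposite direction was lost. From 0 d to 1 d PRX66 (GRMZM2G133475) moved by −0.99 in Lo5 (−0.55 without that array, with both arrays left below 0) and by 2.18 in T250, a difference of −3.18 (−2.73 without it). The T250 spots of PRX2 at 0 d were all marked as non-uniform or outlying.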

How the results depend on the processing

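Dim signals limit these results, since values of spots not well above background are set mostly by the background. With a normexp correction of the median signals (with an offset of 50, and the mean signals were not used here) the log2 ratio in T250 turned for GRMZM2G150731, to 1.02 at 4 d against 0 d and 0.35 at 4 d against 1 d, and for GRMZM2G041308, to 1.29 and 0.66. The same setting turned the difference between the lines for GRMZM2G150731, to −1.51 from 0 d and −1.76 from 1 d to 4 d, and the 1 d change of GRMZM2G041308 in Lo5, to 0.51. It also brought the fall of GRMZM2G138450 to −4.40 in Lo5 and −1.44 in T250 at 4 d against 0 d, and leaving out 1 array moved the latter between −8.59 and −6.74 (−7.76). The cause was not tested. Of 6 members in Lo5 at 4 d against 0 d, 1 (GRMZM2G041308, at background at 4 d) was past the threshold of the methods and lower, as with most alternatives, but 0 were with normexp, with the methods' t-test (marked spots left out, kept, or kept with no filter) and among probes well above background on all arrays, where GRMZM2G041308 is not tested. The filter favours a fall of GRMZM2G041308 from 0 d in Lo5, so nothing is read from that count. Leaving out 1 array gave 1 to 2 (GRMZM2G085967 joined without Lo5 4 d replicate 1), and at 1 d against 0 d 0 to 1 (GRMZM2G041308 without Lo5 1 d replicate 2). At 4 d against 1 d in Lo5 the count of 1 became 0 with the slide as a block, with normexp, with limma on the groups compared only and with the 3 t-tests, 3 with marked spots kept and without Lo5 1 d replicate 3, and 0 to 3 when 1 array was left out. GRMZM2G150731, at background at 4 d, reached an adjusted p of 0.047 there without Lo5 1 d replicate 2. Between the lines at 1 d the count of 1 (GRMZM2G150731, favoured by the filter) became 0 among probes well above background on all arrays, with limma on the groups compared only and with the 3 t-tests. It was 1 to 2 when 1 array was left out (GRMZM2G089982 joined without T250 4 d replicate 2). The adjusted p of GRMZM2G150731 there was 0.067 with the slide as a block, 0.37 with limma on the groups compared only, 0.57 to 0.67 with the t-tests and 1.00 with normexp, where its log2 ratio was −0.07 and the 1 transcript past the threshold was GRMZM2G089982. With the replicate block the counts stayed at 1, 0, 1 and 1 in these 4 comparisons, no call of a tested member changed, and the log2 ratio of GRMZM2G041308 at 4 d in Lo5 was −3.13 with an adjusted p of 0.17. Over all probes, the count past the threshold of the methods ran from 231 to 1169 (516) at 4 d and from 26 to 1061 (190) at 1 d against 0 d in Lo5, from 354 to 2026 (1055) at 4 d against 1 d in Lo5, from 530 to 5615 (2692) between the lines at 1 d, and from 352 to 1936 (1183) at 4 d against 0 d in T250. In T250 at 4 d against 1 d it ran from 426 to 2531 (1817). Of 2368 values of single members under alternatives, 2321 kept their call or moved by less than the spread between arrays. Many of these could not move, since leaving out an array of another group does not change a log2 ratio. The count is therefore no measure of how stable the results are. The t-tests with marked spots kept and the combination of marked spots kept without Lo5 1 d replicate 3 were added after seeing the data. Family lists by RefSeq description and promoter motifs, on both strands or 1, were not run.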
